A study of Mus musculus with 3 samples.

Results

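The DEAD and DEAH box RNA helicases are described here in chromatin-bound RNA of mouse macrophages. Members were all protein-coding genes whose symbol is Ddx or Dhx with a number and at most 1 further letter, leaving out Ddx58, Dhx58 and Ddx3y. The pattern matched 53 symbols, and the 3 exceptions left 50 members among 22028 protein-coding and 55536 annotated genes. The rule used names only, not measured levels. The cells were primary macrophages grown from bone marrow of strain C57BL/6J and exposed for 20 min to 100 ng/ml Lipid A, a ligand of the receptor TLR4. Total RNA of the chromatin fraction was depleted of ribosomal RNA and sequenced in 3 libraries of 1 group, called replicates 1, 2 and 3, from 1 µg, 250 ng and 500 ng of RNA. No untreated group was analysed here, so levels and isoform shares are reported and no response to Lipid A.

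DEAD and DEAH box proteins use ATP to unwind short RNA duplexes or to strip proteins from RNA. The family is named after the amino acids of motif II, the part of the ATPase core that binds the metal ion of the nucleotide. Its members act at nearly every step of an RNA's life, from transcription and splicing to export, ribosome assembly, translation and decay. Several of the nuclear members work while the RNA is still attached to its gene.

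Motif II is shown first because it defines the family. In each member's longest coding sequence starting with ATG, a script looked for the amino acids D and E followed by any of A, V, I, S, C, Q or L and then D or H, with any of A, C, F, I, L, M, T, V or Y at 2 residues before the D. The form DEAD was found in 27 members and the form DEAH in 9. The variants DEVH (5 members), DEVD (3), DECD (2), DEIH (2) and DESD (1) made up the rest, and Dhx32 held none of these forms. Ddx5, Dhx15, Ddx39b and Dhx9 stand for 4 of the forms below, with the 4 codons of the motif in capitals. These and all other sequences are from GENCODE M21 transcripts on GRCm38, the build that mm10 names.
Ddx5, DEAD: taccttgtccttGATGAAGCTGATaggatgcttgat
Dhx15, DEAH: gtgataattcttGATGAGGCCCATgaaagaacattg
Ddx39b, DECD: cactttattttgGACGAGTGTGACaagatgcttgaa
Dhx9, DEIH: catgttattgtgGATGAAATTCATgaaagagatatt

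The libraries held 16317439, 16245280 and 12439931 expected counts in the gene tables, and the members took 0.870% ± 0.0214 (SD, n = 3) of the counts on protein-coding genes. All values with ± are means and SD over the 3 libraries. For a gene listed at 0, the limit of 3 counts equals 0.184, 0.185 and 0.241 CPM, that is, counts relative to all counts of the library, and covers counting error only. Levels are in TPM, a unit that divides reads by transcript length and so allows genes to be compared. In bulk RNA, fewer cells with a transcript and less RNA per cell cannot be told apart. The labelled cell type was checked on markers: all 10 macrophage markers reached 1 TPM in every library and summed to 699 to 1164 TPM. None of the 28 markers of T and NK cells, B cells, neutrophils, fibroblasts and erythroid cells was, and each of these 5 lists summed to at most 1.59 TPM.

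RNA of nearly the whole family was present on chromatin. Of the 50 members, 47 (94.0%) reached 1 TPM in every library, beside 40.6% of all protein-coding genes. The exceptions were the 3 germline helicases. The genes Ddx5, Ddx17, Ddx3x, Ddx39b and Ddx60 were at or above 50 TPM in every library. The median over all 50 members was 10.3 ± 2.40 TPM. Over the 47 detected members it was 10.9 ± 2.28 TPM, beside 9.02 ± 2.60 TPM over all protein-coding genes at or above 1 TPM. Within libraries the medians were 8.31, 11.6 and 12.7 TPM beside 6.96, 8.15 and 11.9 TPM in replicates 1, 2 and 3, so the members' median was the higher in each library, with no test of the gap.

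**Figure D1:**
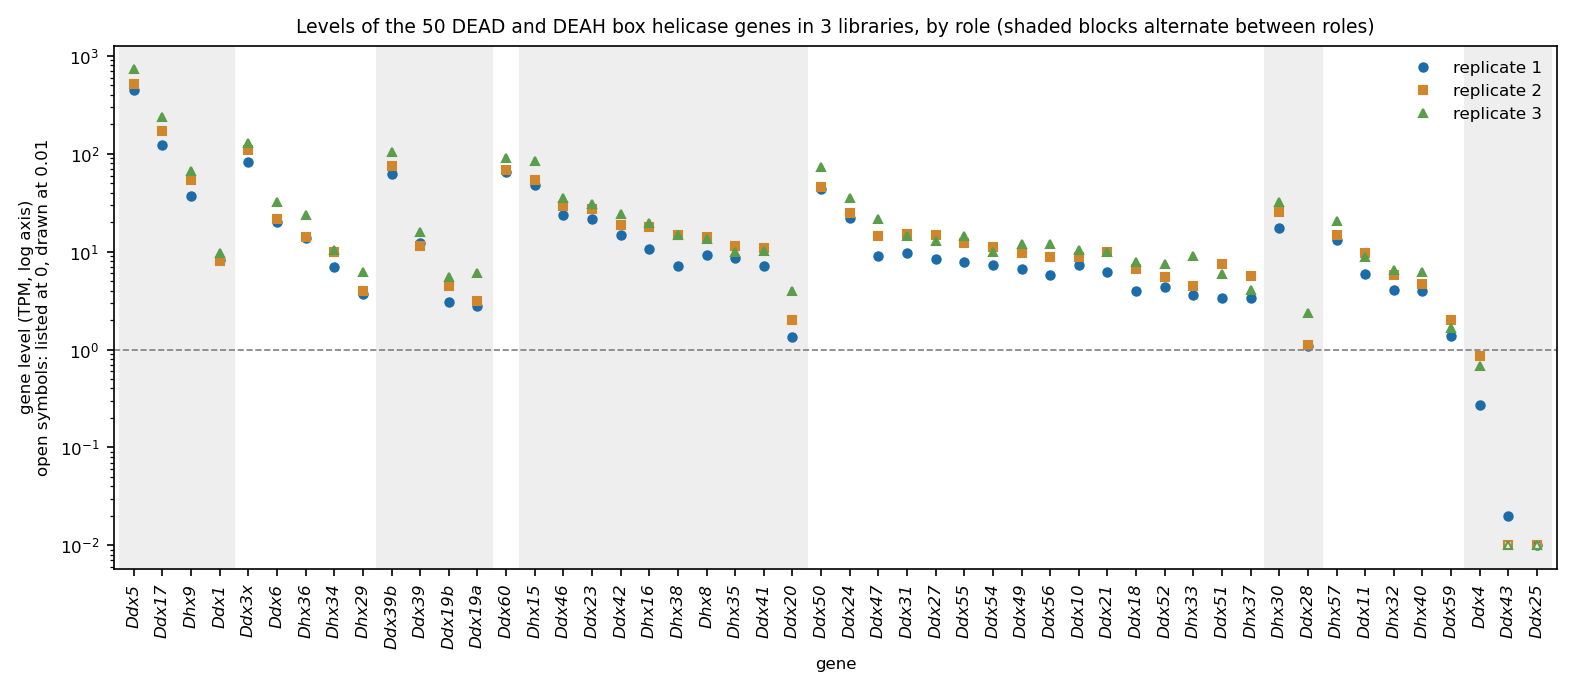
Gene levels (TPM, log axis) of the 50 helicase genes in each of the 3 libraries, in blocks by role, with the dashed line at 1 TPM. From left to right the blocks are transcription and microRNA processing, translation and decay, mRNA export, interferon-inducible, spliceosome and snRNP, ribosome biogenesis, mitochondrial, less characterised, and germline; Ddx5 is highest at 449 to 731 TPM, and only the germline block lies under the line.

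Among the transcriptional helicases, Ddx5 had the highest gene level of the family, summed over all its isoforms. Ddx5, also called p68, is a coactivator of many transcription factors and a cofactor of the Microprocessor, which cuts primary microRNAs. Its gene, at chr11:106780355-106789185 on the minus strand, was at 449, 523 and 731 TPM in replicates 1, 2 and 3 (568 ± 146 TPM), rank 11 among protein-coding genes. Its close paralog Ddx17, or p72, at chr15:79527736-79546741 on the minus strand, was at 122, 173 and 235 TPM (177 ± 56.8 TPM), rank 116. The lowest Ddx5 library lay above the highest Ddx17 library, while the Ddx17 libraries overlapped those of Ddx3x, the third by mean. Over isoforms annotated as protein coding alone, the order of Ddx5 and Ddx17 turned in every library. Ddx5 was at 71.8, 108 and 155 TPM there, below Ddx17 at 122, 173 and 235 TPM. That order depends on the annotated types. Isoforms that read past exon 11 into intron 11 are annotated as coding in Ddx17 but not in Ddx5. Counting only isoforms that join exon 11 directly to the start of exon 12, Ddx5 was the higher in every library. It was at 63.1, 73.9 and 123 TPM, and Ddx17 at 23.7, 26.85 and 56.2 TPM. In a second set of transcript tables of the same libraries, called kallisto tables after their column layout, Ddx3x was above Ddx17 in every library, at 166, 163 and 225 TPM against 145, 151 and 221 TPM, so the order of this pair depends on the table. Dhx9, RNA helicase A, which unwinds RNA and RNA-DNA hybrids and binds RNA polymerase II complexes, was at 37.2, 54.3 and 66.6 TPM. Ddx1, which takes part in tRNA ligation, was far lower at 8.31, 8.12 and 9.60 TPM. The Microprocessor subunits with which Ddx5 and Ddx17 work, Drosha at 14.0 ± 2.63 TPM and its partner Dgcr8 at 15.9 ± 4.49 TPM, were both below the lowest library of either helicase.

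Among the export helicases, Ddx39b stood above the rest. Known as UAP56, it loads onto pre-mRNA during splicing and recruits the TREX export complex. The gene, at chr17:35241746-35253707 on the plus strand, was at 62.3, 75.3 and 105 TPM (81.0 ± 22.2 TPM). Its paralog Ddx39 reached 12.2, 11.6 and 15.8 TPM, below every Ddx39b library. Ddx39 overlaps Adgre5, which lies on the opposite strand and was at 49.0 ± 2.14 TPM. With strand use not given in the sources used here, unspliced reads from the stretch that overlaps cannot be assigned to either gene. The part of Adgre5 in the Ddx39 level was not tested. Ddx19b was at 3.07, 4.47 and 5.50 TPM and Ddx19a at 2.80, 3.12 and 6.06 TPM. These are neighbouring near-copies of the helicase that releases export factors at the nuclear pore. Both had fractional counts, from reads shared between genes, so their separate levels are uncertain.

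The export partners spanned a wide range. Of 15 gene entries for TREX and related factors, in which Zc3h11a stands for 2, 12 reached 1 TPM in each library. The export receptor Nxf1 was highest at 120 ± 30.7 TPM, followed by the TREX scaffold Thoc2 at 77.1 ± 17.5 TPM. Nxt1, the small partner of Nxf1, was lowest at 0.437 ± 0.360 TPM.

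All 10 helicases of the spliceosome and of snRNP assembly were detected. Dhx15, the Prp43 homolog that takes spent spliceosomes apart, led at 47.8, 54.3 and 85.5 TPM. Ddx46, which acts as the branch site is recognised, was at 23.7, 29.0 and 35.8 TPM. Ddx23, a helicase of the U5 snRNP that prepares the spliceosome for activation, was at 21.8, 27.0 and 30.8 TPM. Their levels overlapped each other, and both lay below every library of Dhx15. The lead of Dhx15 did not hold in the kallisto tables, where Dhx16 averaged 94.7 ± 51.6 TPM and Dhx15 75.0 ± 20.4 TPM, with Dhx16 lower in replicate 1 and higher in replicates 2 and 3. Ddx42, an SF3b-associated helicase, came next at 15.0, 18.7 and 24.1 TPM.

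The DEAH box helicases that drive the catalytic steps formed a lower group in the gene tables. Dhx16, the Prp2 homolog that activates the spliceosome, was at 16.0 ± 4.75 TPM. Dhx38 (Prp16), which acts between the splicing steps, and Dhx8 (Prp22), which releases the spliced mRNA, were both at 12.2 TPM (SD 4.45 and 2.66). Dhx35 was at 9.98 ± 1.41 TPM and Ddx41 at 9.36 ± 2.02 TPM, and both are known from catalytic spliceosomes. Ddx20, or Gemin3, a subunit of the SMN complex that builds snRNPs, was lowest at 1.33, 2.01 and 3.93 TPM. Of its 8 SMN partners, 4 reached 1 TPM in each library, led by Strap at 7.68 ± 2.70 TPM and Smn1 at 7.39 ± 2.68 TPM. Gemin6 was lowest at 0.0633 ± 0.0569 TPM.

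For G-patch proteins, which switch on Dhx15 and related DEAH box helicases, RNA was mostly present: 19 of 21 genes reached 1 TPM in each library. Son, a splicing cofactor of nuclear speckles, was at 229 ± 55.9 TPM and the splicing factor Rbm5 at 116 ± 17.7 TPM. Nkrf was lowest at 0.563 ± 0.337 TPM.

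The 16 helicases of ribosome biogenesis and the nucleolus were all detected, at a median of 9.33 ± 2.16 TPM. Ddx50, a nucleolar helicase closely related to Ddx21, stood highest at 43.8, 46.2 and 73.0 TPM. Ddx24 followed at 21.8, 25.1 and 35.2 TPM, below every Ddx50 library. Over isoforms annotated as protein coding alone, Ddx50 and Ddx24 overlapped, at 13.1 ± 4.17 and 12.9 ± 3.17 TPM. Ddx47 was at 8.94, 14.4 and 21.4 TPM and Ddx31 at 9.61, 15.2 and 14.3 TPM. Dhx37, which helps mature the small ribosomal subunit, was lowest at 3.33, 5.62 and 4.10 TPM.

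The other 11 members of this group lay between 5.62 and 11.99 TPM on average. Ddx27, Ddx55, Ddx54, Ddx49, Ddx56, Ddx10 and Ddx21 fell between 8.62 and 11.99 TPM. Ddx18, Ddx52, Dhx33 and Ddx51 fell between 5.62 and 6.14 TPM. Ddx21, the best known of these as a link between transcription and rRNA processing, was at 8.62 ± 2.14 TPM, under its paralog Ddx50 in every library.

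RNA of the 5 helicases of cytoplasmic steps was detected too, at a median of 17.2 ± 5.55 TPM beside 14.5 ± 3.99 TPM for the spliceosome group. These are RNA levels of the genes and do not show where the proteins are. Ddx3x, which helps ribosomes start on structured mRNAs, is at chrX:13280970-13294052 on the plus strand and was at 82.9, 109 and 129 TPM (107 ± 23.2 TPM). Ddx6, which represses translation and promotes decapping in P-bodies, was at 20.3, 21.5 and 31.8 TPM. Dhx36, which unfolds G-quadruplexes, was at 13.7, 14.3 and 23.6 TPM. Dhx34, a factor of nonsense-mediated decay, was at 6.97, 9.94 and 10.4 TPM. Dhx29, which helps the small ribosomal subunit scan, was lowest at 3.69, 3.93 and 6.13 TPM. Ddx3x exceeded the other 4 in every library.

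The 10 decapping and P-body partners of Ddx6 were all detected. Cnot1, the scaffold of the main deadenylase, was at 56.9 ± 18.3 TPM, Lsm14a at 28.8 ± 8.32 TPM, and Lsm14b was lowest at 2.94 ± 0.867 TPM. Of 4 partners in the exon junction complex, 3 were detected, with Casc3 at 6.92 ± 1.83 TPM, Rbm8a at 5.84 ± 1.80 TPM and Magohb lowest at 0.973 ± 0.211 TPM.

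Ddx60, an interferon-inducible helicase of antiviral defence, was at 65.7, 67.8 and 90.8 TPM, the fifth highest member. Its 3 libraries overlapped those of Ddx39b. In the kallisto tables Ddx60 was above Ddx39b in every library, at 125, 89.0 and 152 TPM against 78.3, 73.8 and 109 TPM, so the order of this pair depends on the table. Over isoforms annotated as protein coding alone, Ddx60 at 61.1 ± 10.3 TPM was above Ddx3x at 43.8 ± 12.2 TPM in every library. The mitochondrial helicases differed widely. Dhx30, which supports mitochondrial ribosome assembly and translation, was at 17.7, 25.2 and 32.1 TPM, and Ddx28, another factor of the mitochondrial ribosome, at 1.08, 1.12 and 2.36 TPM. Every Dhx30 library was above every Ddx28 library. The Dhx30 and Ddx28 genes overlap genes on the opposite strand, Smarcc1 at 15.1 ± 2.43 TPM and Dus2 at 7.76 ± 1.07 TPM, whose part in these levels was not tested.

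Of the less characterised members, Dhx57 was highest at 13.2, 14.9 and 20.7 TPM. Ddx11, a DNA helicase needed for cohesion of sister chromatids, was at 5.91, 9.76 and 8.90 TPM. Dhx32 was at 4.05, 5.84 and 6.49 TPM and Dhx40 at 4.0, 4.68 and 6.14 TPM, with overlapping ranges. Ddx59 was lowest at 1.37, 2.00 and 1.66 TPM.

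The germline helicases stood apart at the bottom. Ddx4, or Vasa, a marker of germ cells, was at 0.27, 0.86 and 0.68 TPM, below the lowest library of every other role. Ddx43 had 1 count in replicate 1 and 0 in the others. Ddx25 had 0 counts in every library, which allows up to 3 counts in each. At this depth neither gene was distinguishable from absent.

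Ranked by mean, most neighbours were not separated. Only 4 steps in the order of the 50 members left the libraries of the 2 genes without overlap. These were Ddx5 over Ddx17, Dhx9 over Ddx46, Ddx28 over Ddx4 and Ddx4 over Ddx43. Outside the symbol rule, all 16 other RNA helicases of a list were detected. The translation factors Eif4a2 at 260 ± 67.6 TPM and Eif4a1 at 222 ± 45.5 TPM fell between Ddx5 and Ddx17 by mean, and Ighmbp2 was lowest at 3.25 ± 1.17 TPM.

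Library differences in TPM moved most members together. Replicate 3 was highest for 36 of the 47 detected members, or 76.6%, beside 89.0% of protein-coding genes at or above 1 TPM. Replicate 1 was lowest for 45 of 47, or 95.7%, beside 72.8%. Protein-coding genes held 15.8%, 18.0% and 24.7% of all TPM in replicates 1, 2 and 3. After TPM was rescaled over protein-coding genes, replicate 3 was highest for 14 of 47 members (29.8%, background 44.8%) and replicate 1 lowest for 21 (44.7%, background 39.5%). The median coefficient of variation of the detected members fell from 26.8% to 13.2% with the rescaling, and that of all coding genes from 30.6% to 15.5%. Ddx5 varied by 2.03% on the rescaled levels, Ddx39b by 4.10%, Ddx17 by 11.8% and Ddx51, among the detected members the most variable, by 38.1%.

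Much of the members' TPM, but less of their counts, lay in isoforms annotated as noncoding. The noncoding share is the percent of a gene's transcript TPM held by isoforms of the types retained intron and processed transcript, neither of which has an annotated coding sequence. The 50 members have 275 annotated isoforms, of which 126 are protein coding, 97 retained intron, 33 processed transcript, 18 targets of nonsense-mediated decay and 1 of non-stop decay. Of the 47 detected members, 43 (91.5%) have a noncoding isoform, beside 83.4% of detected protein-coding genes. Ddx17, Ddx10, Ddx19b and Ddx28 have none. Over the 43, the median share was 41.6% ± 2.92, beside 48.1% ± 1.58 over all such protein-coding genes. Over expected counts in place of TPM, the members' median was 15.2%. A majority of the TPM was noncoding in 15 of 43 members (34.9%), beside 46.9% of such genes. The count of members was 7 over expected counts and 22 in the kallisto tables, with the matching share of all such genes not computed for either. The median share in the kallisto tables was 50.5% ± 2.70 over the members, beside 53.6% ± 1.57 over such genes. Unspliced RNA still being made and finished RNA with a kept intron cannot be told apart in these tables.

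**Figure D2:**
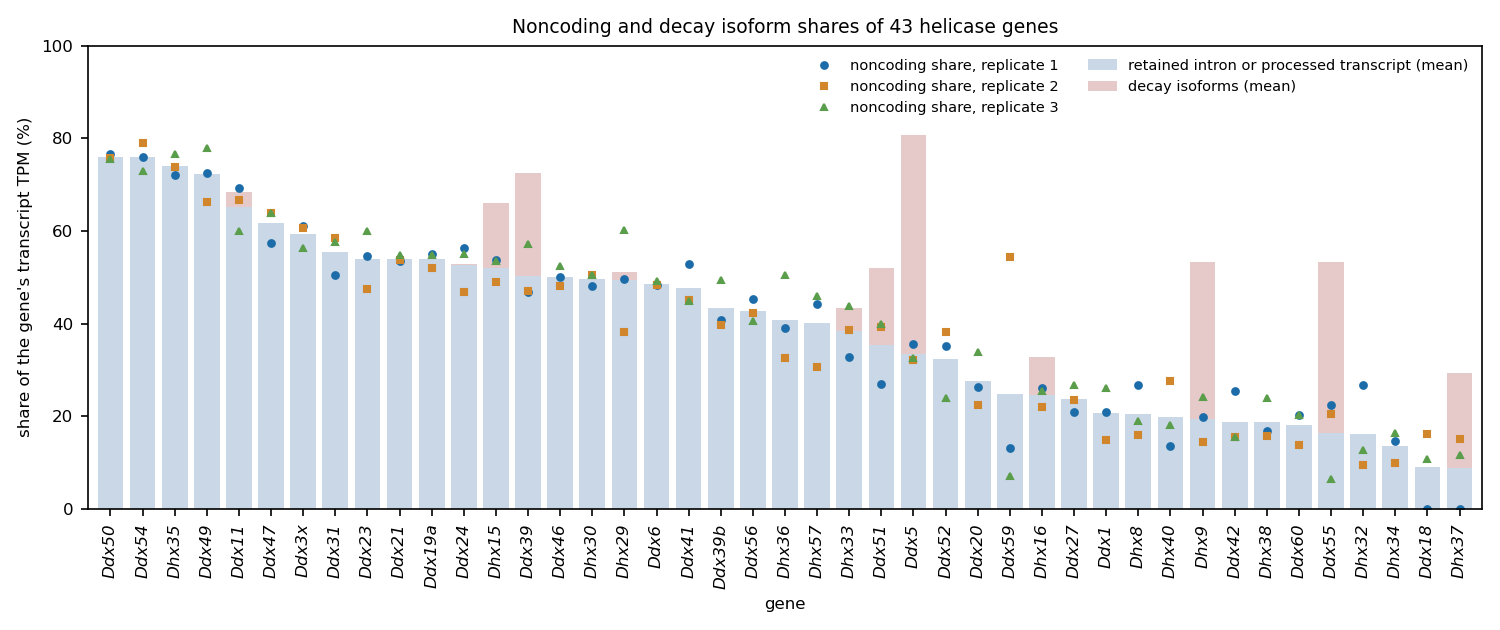
Noncoding share (blue bars, mean of 3 libraries, with 1 point per library) and share of decay isoforms stacked on it (red bars, mean), both as percent of the gene's transcript TPM, for the 43 detected helicase genes with a noncoding isoform. Ddx50 and Ddx54 are highest at 75.9% noncoding, Dhx37 lowest at 8.94%, and Ddx5 carries the largest decay share at 47.2%.

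Ddx50 and Ddx54 had the highest noncoding shares, followed by Dhx35. In Ddx50 the share was 76.6%, 75.8% and 75.5% in replicates 1, 2 and 3. Ddx54 had 75.9%, 79.0% and 72.9%. Dhx35 had 72.0%, 73.7% and 76.5%. Ddx50 combined a high gene level with the second smallest SD of any share, 0.558 percentage points. Its coding isoforms held 13.1 ± 4.17 TPM of 54.3 ± 16.2 TPM. Ddx49 followed at 72.4%, 66.3% and 78.0%, and the DNA helicase Ddx11 at 69.2%, 66.6% and 59.9%. Ddx54 and Ddx49 had counts shared between genes, and Ddx49 overlaps Homer3 on the opposite strand, at 19.1 ± 5.65 TPM. The part of these in the shares was not tested.

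The lowest shares were less steady between libraries. Dhx37 had 0%, 15.1% and 11.7%, and Ddx18 had 0%, 16.2% and 10.7%, each with replicate 1 apart from the others. Dhx34 had 14.7%, 9.95% and 16.3%. Dhx32 had 26.7%, 9.42% and 12.8%, and Ddx55 had 22.4%, 20.6% and 6.44%. These 5 genes were at mean gene levels of 4.35 to 11.6 TPM. In the kallisto tables the mean share was 40.8% for Ddx18, 47.04% for Dhx32 and 25.3% for Ddx55, so none of these was among the 5 lowest there. By role, the median share was 43.7% ± 1.47 for the ribosome group and 37.2% ± 2.97 for the spliceosome group. The ribosome group's medians of 45.2%, 42.3% and 43.8% in replicates 1, 2 and 3 lay above the spliceosome group's 38.5%, 33.8% and 39.4% without overlap, and the gap was not tested.

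Decay isoforms add to these shares in some members. Such an isoform is annotated for 14 of the 47 detected members (29.8%), beside 33.4% of detected protein-coding genes. Ddx5 was highest, with 48.4%, 47.1% and 46.1% of its TPM. Ddx55 had 26.6%, 38.3% and 45.8%, and Dhx9 had 34.8%, 35.7% and 31.0%. The Ddx5 and Dhx9 values varied little, whereas the 3 libraries of Ddx55 were spread widely. Ddx39 had 22.3% ± 2.44, but its decay isoform Ddx39-207 has the same 3836-base sequence as the coding isoform Ddx39-206, so reads cannot separate them. Dhx37 had 20.5% ± 9.51, Ddx51 16.7% ± 9.93 and Dhx15 14.0% ± 1.17, and the remaining 7 were under 9%.

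What the retained-intron isoforms contain was read from their exons. Of the 97, 39 span at least 1 whole intron of a coding isoform of the same gene and the other 58 hold part of an intron only. The 39 hold 54 different whole introns of 40 to 2705 bases, with a median of 300 bases, beside 992.5 bases over all 890 introns of the members' coding isoforms. The isoforms are short, with a median of 792 bases beside 2834.5 bases for the coding ones. TPM divides by length, so the same reads weigh more in a short isoform. Taken over expected counts in place of TPM, the median noncoding share of the 43 members was 15.2%.

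Ddx5 shows the pattern at the highest level. Its most abundant isoform was Ddx5-208, a decay target, at 217, 246 and 337 TPM (267 ± 62.6 TPM). Ddx5-209, a processed transcript, was at 73.0, 94.7 and 127 TPM. The retained-intron isoform Ddx5-202 was at 87.0, 73.7 and 111 TPM. The full-length coding isoform Ddx5-201 was at 63.1, 73.9 and 123 TPM, lower than Ddx5-208 in every library and overlapping the other pair. The noncoding share of Ddx5, from Ddx5-209 and Ddx5-202, was 35.7%, 32.2% and 32.7% (33.5% ± 1.86). With Ddx5-208 added it was 80.7%. Over expected counts it was 7.80%, since Ddx5-202 and Ddx5-209 are 708 and 810 bases long beside 3559 bases for Ddx5-201. All coding isoforms together held 112 ± 41.7 TPM of 568 ± 146 TPM.

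**Figure D3:**
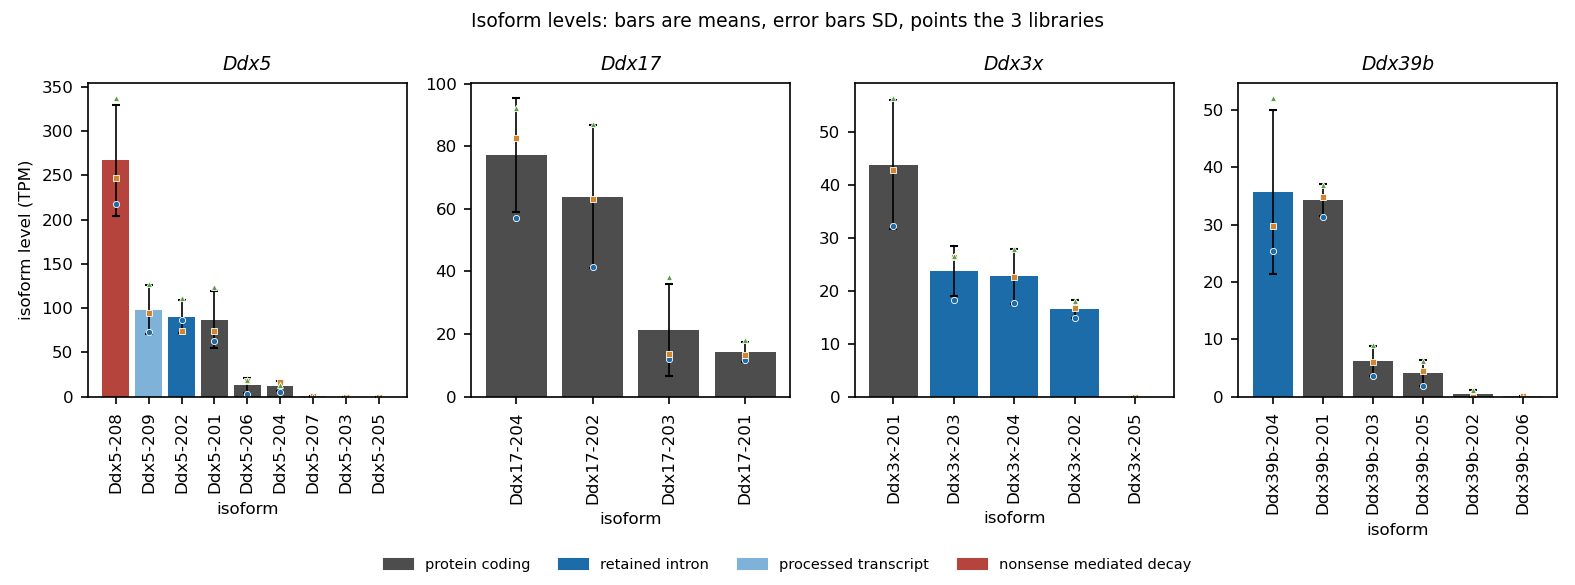
Levels (TPM) of the annotated isoforms of Ddx5, Ddx17, Ddx3x and Ddx39b, with bars at the mean of 3 libraries, error bars as SD and 1 point per library, coloured by annotated type. Ddx5-208, a decay target, is the highest isoform at 267 TPM, and Ddx39b-204, with a retained intron, stands level with the coding Ddx39b-201 (35.7 and 34.4 TPM).

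The 3 abundant Ddx5 isoforms that are not fully coding all carry intron sequence. Ddx5-209 starts inside intron 5, of which it holds 514 of 530 bases. Ddx5-202 keeps intron 10, of 82 bases, whole and ends 226 bases into intron 11. Ddx5-208 keeps all 1265 bases of intron 11, at chr11:106782694-106783958. The microRNA genes Mir3064 and Gm25994 overlap this intron on the same strand, and both had 0 counts in every library. Intron 10, at chr11:106784019-106784100, is printed because it is short enough to be read whole, with its first and last 2 bases in capitals.
Ddx5 intron 10: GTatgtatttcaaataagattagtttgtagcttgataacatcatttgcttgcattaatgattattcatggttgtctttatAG

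Ddx17 has no isoform of a noncoding type, so its noncoding share is 0% by annotation. All 4 of its isoforms are annotated as coding, yet they differ in what follows exon 11. Ddx17-204 joins exon 11 to a long last exon that begins 1296 bases before exon 12, inside intron 11, spans the whole of exon 12 and ends 319 bases after it. This isoform was at 57.0, 82.7 and 92.1 TPM. Ddx17-202, which runs on from exon 11 into intron 11 and ends there, was at 41.3, 63.2 and 87.0 TPM. The isoforms that join exon 11 directly to the start of exon 12 were lower in every library, with Ddx17-203 at 12.1, 13.5 and 38.2 TPM and Ddx17-201 at 11.7, 13.4 and 18.0 TPM. Replicate 3 of Ddx17-203 was far above its other libraries.

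Both paralogs therefore have an isoform that reads past the same exon. The full-length isoforms Ddx5-201 and Ddx17-201 each have 13 exons, and 8 of these have the same length in both genes. Exon 11 is 60 bases long in each, at chr11:106783959-106784018 in Ddx5 and chr15:79535957-79536016 in Ddx17, and 47 of the 60 bases (78.3%) are identical. The exons are printed with the bases that differ in capitals.
Ddx5 exon 11: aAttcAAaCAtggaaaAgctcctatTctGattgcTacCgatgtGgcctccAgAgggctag
Ddx17 exon 11: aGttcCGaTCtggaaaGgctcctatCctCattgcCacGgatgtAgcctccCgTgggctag

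What follows exon 11 differs between the isoforms. The next 4 lines show its last 24 bases and the 20 bases after them. Spliced to exon 12, the 2 genes share 18 of these 20 bases. Read into intron 11, both meet an annotated stop codon, shown in capitals, which ends 5 bases after the exon in Ddx5-208 and 14 bases after it in Ddx17-202.
Ddx5-201, exon 11 to exon 12: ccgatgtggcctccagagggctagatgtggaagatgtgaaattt
Ddx5-208, exon 11 into intron 11: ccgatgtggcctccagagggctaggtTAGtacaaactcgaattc
Ddx17-201, exon 11 to exon 12: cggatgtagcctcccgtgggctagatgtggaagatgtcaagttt
Ddx17-202, exon 11 into intron 11: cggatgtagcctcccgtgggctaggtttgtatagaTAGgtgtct

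The annotation names the outcome differently in the 2 genes. Ddx5-208 reads through intron 11 into exon 12, splices on to exon 13 and is classed as a decay target. Ddx17-202 ends 1296 bases into the 4042-base intron 11, at chr15:79531915-79535956, and is classed as coding. Isoforms that read past exon 11 held 67.7%, 61.2% and 61.3% of Ddx5 TPM (63.4% ± 3.76). In Ddx17 they held 33.8%, 36.6% and 37.0% (35.8% ± 1.71), below every Ddx5 library. Isoforms that join exon 11 directly to the start of exon 12 held 15.0% ± 1.61 of Ddx5 and 19.6% ± 4.17 of Ddx17, with overlapping libraries. In the kallisto tables they held 10.6% ± 2.46 and 18.6% ± 3.87, without overlap. All these shares are of the whole gene's TPM. Every Ddx17 isoform holds exon 11, while Ddx5-209, Ddx5-206 and Ddx5-204, at means of 98.3, 12.9 and 11.9 TPM, lack it. Shares among isoforms with exon 11 alone were not computed, so these gaps cannot be read as differences in splicing after exon 11. Ddx17-204 held the remaining 44.6% ± 4.74 of Ddx17. Kdelr3, on the opposite strand, overlaps the Ddx17 gene and was at 1.71 ± 0.238 TPM.

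**Figure D4:**
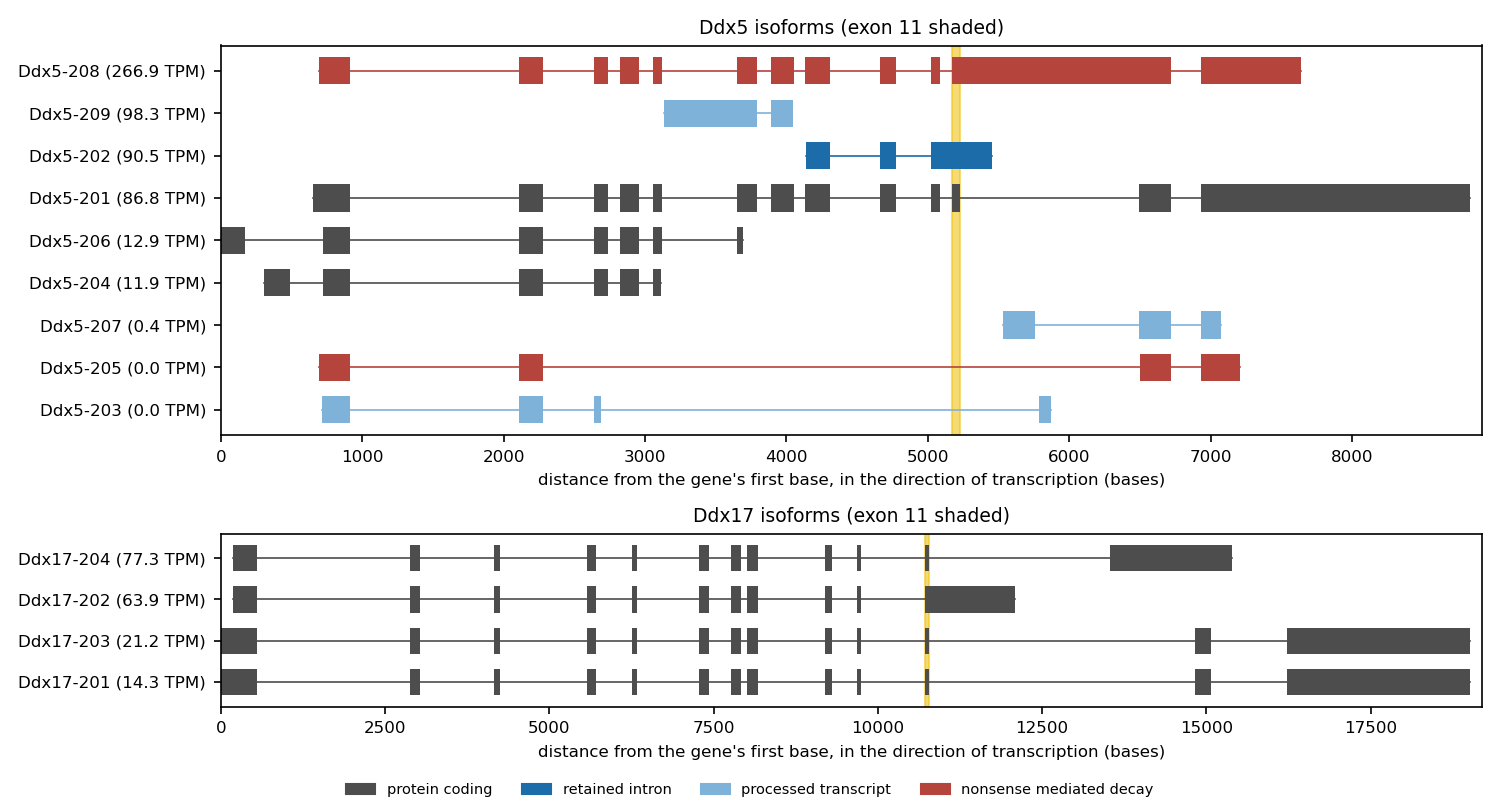
Exons (boxes) of the Ddx5 and Ddx17 isoforms, by distance in bases from the gene's first base, coloured by annotated type and ordered by mean TPM, which is given beside each name. Ddx5-208 and Ddx5-202 run past the shaded exon 11 into intron 11, as Ddx17-202 does.

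Ddx39b combined a coding and a retained-intron isoform at like levels. Ddx39b-204, with a retained intron, was at 25.4, 29.7 and 52.1 TPM, and the coding Ddx39b-201 at 31.4, 34.8 and 36.9 TPM. The retained-intron isoform was below the coding one in replicates 1 and 2 and above it in replicate 3. Ddx39b-203 was at 3.69, 6.04 and 9.03 TPM and Ddx39b-205 at 1.79, 4.51 and 6.24 TPM, both coding. The noncoding share of the gene was 40.7%, 39.8% and 49.4% (43.3% ± 5.30), almost all of it Ddx39b-204. Over expected counts it was 41.8%, as both isoforms have nearly the same length, 1711 and 1739 bases.

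That isoform reads out of exon 6 and ends 801 bases into intron 6, a 2177-base intron at chr17:35249070-35251246. The Ddx39b gene also holds 4 small RNA genes, 2 of them snoRNAs (Gm22589 and Gm25128) and 2 microRNAs (Mir6975 and Mir8094). None of them overlaps the last exon of Ddx39b-204, and their counts were 0 in every library but for 1 count on Mir8094 in replicate 2. The last 24 bases of exon 6 are shown with the 20 bases that follow them, and with the first 2 bases of the intron in capitals.
Ddx39b-201, exon 6 to exon 7: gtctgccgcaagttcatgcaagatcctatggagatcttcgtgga
Ddx39b-204, exon 6 into intron 6: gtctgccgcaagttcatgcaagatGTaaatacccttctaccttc

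Ddx3x carried 3 retained-intron isoforms. Ddx3x-203 was at 18.2, 26.5 and 26.6 TPM and keeps intron 11, of 297 bases. Ddx3x-204 was at 17.6, 22.6 and 27.9 TPM and keeps intron 5, of 80 bases. Ddx3x-202 was at 14.9, 16.8 and 18.1 TPM and keeps intron 8, of 208 bases. Each was lower than the full-length Ddx3x-201, at 32.2, 42.8 and 56.5 TPM, in every library. The kallisto tables turned part of this order: Ddx3x-204 was at 70.5, 71.2 and 101 TPM there, above Ddx3x-201 at 39.5, 38.5 and 56.3 TPM in every library, while Ddx3x-203 averaged 29.7 ± 3.41 TPM and Ddx3x-202 29.1 ± 4.47 TPM. Together the 3 isoforms gave a noncoding share of 61.1%, 60.6% and 56.3%. The mean share of 59.3% became 17.5% over expected counts and 75.8% in the kallisto tables. Intron 5, at chrX:13287384-13287463, is close in size to intron 10 of Ddx5, and 25.0% of its bases are G or C beside 26.8% there.
Ddx3x intron 5: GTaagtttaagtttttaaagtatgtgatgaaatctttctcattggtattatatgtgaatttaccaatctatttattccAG

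Other high members showed different makeups. In Dhx9 the coding Dhx9-201 was at 15.5, 25.6 and 26.2 TPM and the decay isoform Dhx9-209 at 12.1, 19.2 and 20.3 TPM, lower in each library. In Dhx15 the retained-intron isoform Dhx15-204, at 15.0, 15.3 and 27.0 TPM, overlapped the coding Dhx15-201, at 14.3, 16.6 and 24.1 TPM. Ddx60 was mostly coding, with a noncoding share of 20.2%, 13.7% and 20.2%.

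The kallisto tables placed other members elsewhere too. Of the 47 detected members, 18 (38.3%) were more than 1.5 times higher there, beside 53.0% of protein-coding genes at or above 1 TPM. Ddx5 was at 711 ± 110 TPM there, Ddx17 at 172 ± 41.9 TPM and Ddx39b at 86.9 ± 19.0 TPM, each within 1.5 times of the gene tables. Ddx3x was at 184 ± 35.0 TPM against 107 ± 23.2 TPM. The widest gap was in Dhx16, at 49.6, 83.3 and 151 TPM in the kallisto tables and 10.6, 17.8 and 19.6 TPM in the gene tables. Nearly all of it lay in the 825-base retained-intron isoform Dhx16-202, at 80.1 ± 47.9 TPM in one and 1.93 ± 0.798 TPM in the other. Dhx35 came next, at 32.0 ± 3.10 TPM against 9.98 ± 1.41 TPM, of which the 328-base Dhx35-203 held 15.1 ± 2.05 TPM in the kallisto tables and was listed at 0 in the other tables. The noncoding shares there were 36.3% ± 4.93 for Ddx5 and 43.2% ± 4.66 for Ddx39b, beside 33.5% ± 1.86 and 43.3% ± 5.30. Both gaps were smaller than the SD of the kallisto libraries, but the Ddx5 gap was larger than the SD of 1.86 in the other tables.

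**Figure D5:**
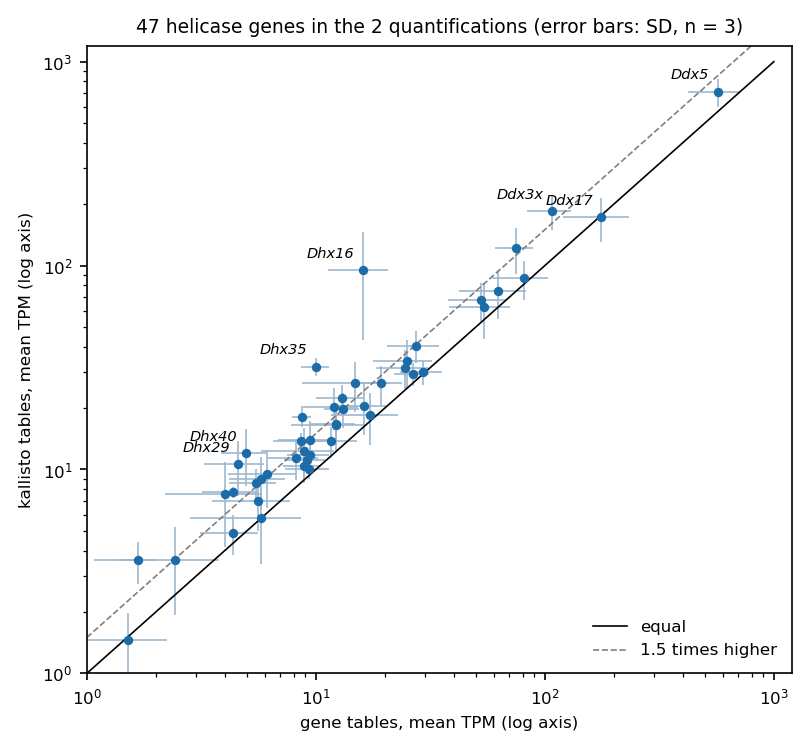
Mean TPM of the 47 detected helicase genes in the gene tables (horizontal, log axis) and in the kallisto tables (vertical, log axis), with SD over 3 libraries as error bars. Dhx16, at 16.0 and 94.7 TPM, and Dhx35, at 9.98 and 32.0 TPM, lie farthest above the dashed line of a 1.5-fold difference, and Ddx17 lies near equality.

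Counting limits apply to some of the members. Reads shared between genes, seen as counts more than 0.01 from a whole number, occurred in 9 of 50 members: Ddx5, Ddx39, Ddx54, Ddx49, Ddx18, Dhx33, Dhx32, Ddx19b and Ddx19a. Another gene overlaps 20 of the 50 members. For 13 of them it lies on the opposite strand, and for 9 of the 13 it is at or above 1 TPM on average. The same shares over all protein-coding genes were not computed, so these counts are not read as particular to the family. Bccip, on the opposite strand from Dhx32, was at 11.1 ± 2.79 TPM beside 5.46 ± 1.26 TPM for Dhx32. On the same strand, the gene entry E030022I16Rik, at 14.2 ± 6.63 TPM, lies over Ddx6 (24.6 ± 6.32 TPM), and Gm47260, at 11.8 ± 3.46 TPM, over Ddx24 (27.4 ± 6.95 TPM). The part of these entries in the members' levels was not tested.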

How the data were processed

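Chromatin-fraction RNA, depleted of rRNA, was sequenced as 3 libraries of the same group. Reads were quantified by the authors against GENCODE M21 on mm10, per the file headers. The authors deposited expected counts per gene and per transcript (RSEM layout) and estimated counts per transcript (kallisto layout). The deposited TPM values sum over every entry in a table, small RNAs included, so those entries change the TPM of all others. The deposited signal columns, credibility interval bounds in TPM, were not used for the values reported. The tool names, aligner and strand setting were not given in the sources used here. The labels list 1 donor entry and separate biosamples, so SD measures the spread between these samples, which may be technical.

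Transcripts were joined to genes by identifier, and noncoding shares, intron contents and sequences were computed from the tables and GENCODE M21 with Python 3.11.15, numpy 2.4.6, pandas 2.3.3 and matplotlib 3.10.9. The share calculation was tested on simulated data. Genes were called detected at 1 TPM or more in every library. With 1 group of 3 libraries there was no comparison between groups and no test, since an exact sign-flip test cannot give a p below 0.25.

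The rule for named genes covered every member once. It gave values per library for Ddx5, Ddx17, Ddx39b, the 4 highest and the lowest of each role, and the 5 highest and 5 lowest noncoding shares. It also gave up to 4 isoforms of Ddx5, Ddx17 and Ddx39b, and the 2 highest and the lowest of each partner list. Isoforms of Ddx3x, Dhx9, Dhx15, Dhx16 and Dhx35 were named after their values were seen. Members and lists were chosen with earlier results of these data known. Alternatives were other detection limits, kallisto tables, rescaled TPM, posterior mean TPM, shares of counts, other isoform types and each replicate left out.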

Additional observations from a re-analysis of the deposited data

How the results depend on the processing

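The number of detected members ran from 44 to 48 over the alternatives. The median level of 10.3 TPM became 15.3 TPM in the kallisto tables and 53.0 TPM after rescaling over protein-coding genes. The median noncoding share of 41.6% became 50.5% in the kallisto tables, 15.2% over expected counts, 35.7% with retained introns alone and 48.5% with decay types added. Members with a noncoding majority numbered 15, and 7 over expected counts, 22 in the kallisto tables. The share of all protein-coding genes was computed beside the 15 only. The Ddx5 share of 33.5% became 36.3% in the kallisto tables, 7.80% over expected counts, 16.2% with retained introns alone and 80.7% with decay types added. The Ddx39b share ran from 40.3% to 45.1% over its alternatives. Leaving out each replicate gave medians of 9.42 to 11.7 TPM and of 40.0% to 42.8%, and 13 to 16 members with a majority. No paired analysis was possible because all libraries belong to 1 group. Depth limits Ddx43 and Ddx25, and the shares of members near or under 10 TPM.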
